A study of Mus musculus with 9 samples.

Results

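Collagens are secreted or membrane-anchored proteins whose chains wind around each other in groups of 3 into a triple helix, and the genes are named by type and chain, so that Col1a1 and Col1a2 encode the chains of type I collagen. The genes described here are those whose symbol has the form Col, a number, a and a number, with at least 90 reads summed over the 9 libraries. Of 34590 gene symbols counted, 43 had this form and 41 reached the minimum: 11 fibrillar collagens, 8 collagens of basement membranes and 22 of other kinds. Col17a1 was the member nearest above the minimum, with 112 reads in all, and Col28a1, with 83 reads, was the nearest below it. Col10a1 had 16 reads. Summed reads of the members reached 152226 for Col3a1, and all 41 passed the filter on low counts.

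Fibrillar collagens build the banded fibres of connective tissue. Type IV collagen forms the sheet-like network of basement membranes, the thin matrix beneath epithelia and around vessels, and types XV and XVIII sit at its border with the tissue. The remaining types coat fibrils (the FACIT group), form beaded filaments (type VI) or hexagonal nets (type VIII), or span the cell membrane. In the embryonic forebrain the basement membrane under the meninges anchors the end-feet of radial glia, while fibrillar collagens are made mainly by meningeal and perivascular cells.

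The tissue was the telencephalon, from which cerebral cortex and basal ganglia develop, of mouse embryos at E12.5 on a mixed strain background, and total RNA was sequenced. There were 5 libraries of wild type embryos (WT, called control elsewhere in the labels) and 4 of embryos labelled Lats1/2 dko, a double knockout of the Hippo pathway kinases Lats1 and Lats2 made with Nestin-Cre, which acts in neural progenitors and their descendants. Hippo kinases hold back the transcriptional coactivators YAP and TAZ. The labels do not say whether WT embryos carried floxed alleles or Cre, whether littermates were used, or whether cells outside the neural lineage lost the genes. The dissected tissue was dissociated, the cells were counted, and ERCC spike-ins, synthetic RNAs, were added per counted cell before extraction. The comparison therefore has 2 scalings: relative, where a gene is set against the typical gene of its library, and per cell, where it is set against the spike-ins.

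Libraries held 12906561 to 45803152 reads in genes. Lats1 was at 132 ± 4.55 CPM (reads scaled to a common library size) in WT (SD, n = 5) and 59.8 ± 1.07 in dKO (SD, n = 4), lower in all 4 dKO libraries. Lats2, counted over the whole gene, went against the label, with 27.0 ± 6.18 CPM in WT and 43.4 ± 9.46 in dKO, and gene counts cannot tell reads inside the deleted part from those outside it. Markers of telencephalic progenitors summed to 1458 to 1653 CPM in WT and 1739 to 1951 in dKO (Nes 783 CPM in WT). Of the 10 tested, 1 was higher and 4 lower in dKO relative to the library, and 5 higher and 2 lower per cell (edgeR, adjusted p under 0.05). Their median relative log2 change was -0.12, so the higher sum does not describe the typical gene of this list. Of all genes tested, 13.7% were higher and 12% lower relative to the library, and 61.1% higher and 0.698% lower per cell. Gene reads per spike-in read ran from 49.9 to 63.5 in WT and from 71.1 to 83.7 in dKO, so the typical gene was higher per cell, with a median log2 difference of 0.43. WT 2, 3 and 4 stood apart by their reads in no gene, 39.3% to 41.3% against 32.0% to 35.6% in the other 6 libraries, and values from WT 1, WT 5 and dKO alone are given beside the results below. That restricted comparison keeps 2 WT libraries and has less power. Bulk tissue cannot separate more cells of a collagen-making type from more RNA in each of them.

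Relative to the library, 10 collagen genes rose in dKO, 2 fell and 29 did not pass the test (edgeR, adjusted p under 0.05 over all 17182 genes tested). Among all genes tested, 13.7% rose and 12% fell. The median log2 change of the 41 members was 0.11, against -0.01 for all genes. Col8a1, Col12a1 and Col5a3 rose at least 2-fold, which 1.66% of all genes tested did. No member fell that far, and 0.559% of all genes did. Levels of 9 members in dKO lay wholly above WT and those of 2 wholly below, which 12.6% and 9.74% of all genes did. With WT 1 and WT 5 alone, 5 members still rose (Col8a1, Col12a1, Col22a1, Col5a2 and Col11a1) and 0 fell by edgeR, with 2 lower at an unadjusted p under 0.05, where 2.51% of all genes rose and 0.949% fell.

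**Figure D1:**
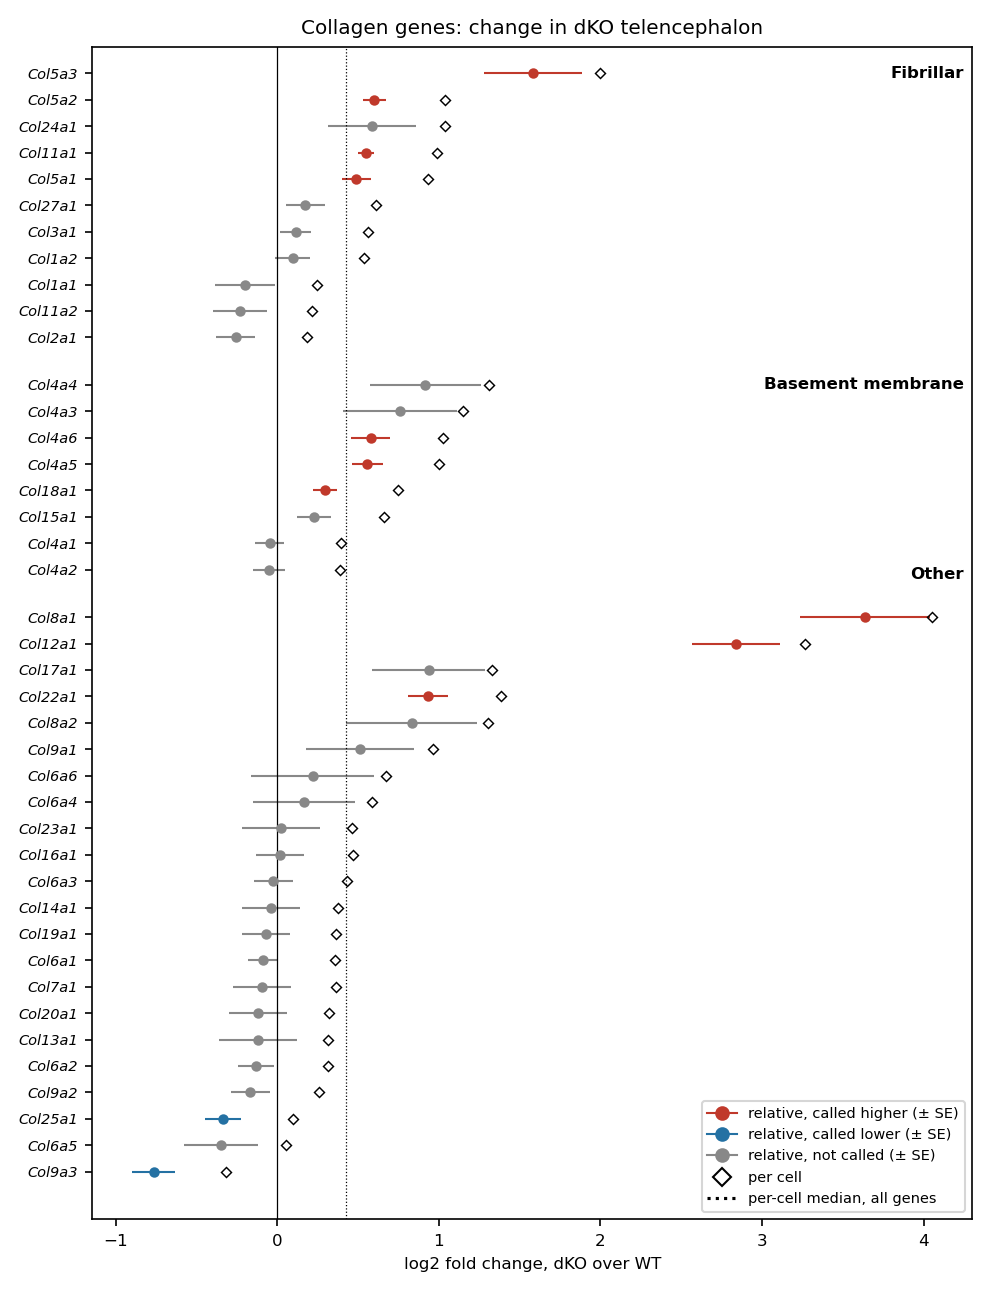
Log2 fold change of each of the 41 collagen genes, dKO over WT, by class. Filled points with bars give the relative change ± SE (red higher, blue lower, grey not past the threshold), open diamonds the per-cell change, and the dotted line the per-cell median of all genes at 0.43; Col8a1 at 3.64 and Col12a1 at 2.84 lie far from the other 39 members.

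Per cell, 26 members rose and 0 fell, by edgeR. That share was near the 61.1% of all genes that rose, and 0.698% of all genes fell. The rises were in 8 of 11 fibrillar, all 8 basement membrane and 10 of 22 other collagens. One member, Col9a3, was lower at an unadjusted p under 0.05; DESeq2 called 0 members lower and limma-voom called 1, the same gene. The median per-cell log2 change was 0.56 for the family and 0.43 for all genes. Per spike-in, 13 members lay wholly above WT and 0 wholly below, against 48.4% and 0.134% of all genes. In WT 1, WT 5 and dKO alone, 21 members rose per cell and 0 fell by edgeR, with 0 lower at an unadjusted p under 0.05, while 49.1% of all genes rose and 0.25% fell.

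Measured per kilobase of exon, so that genes can be compared with each other, Col3a1 was the most abundant member, at 101 CPM per kb over all libraries. Col4a1 followed at 73.5, Col4a2 at 38.1, Col5a2 at 31.5, Col1a2 at 30.5, Col18a1 at 22.1 and Col2a1 at 20.2. The other class was lower, led by Col12a1 at 7.88, Col22a1 at 5.66 and Col6a1 at 5.11. Col12a1 reached that place through the dKO libraries: its level per kb was 2.09 in WT and 15.1 in dKO. Col8a1 moved from 0.284 to 3.44 per kb. The most abundant gene of each of the fibrillar and basement membrane classes, Col3a1 and Col4a1, did not pass the relative test.

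**Figure D2:**
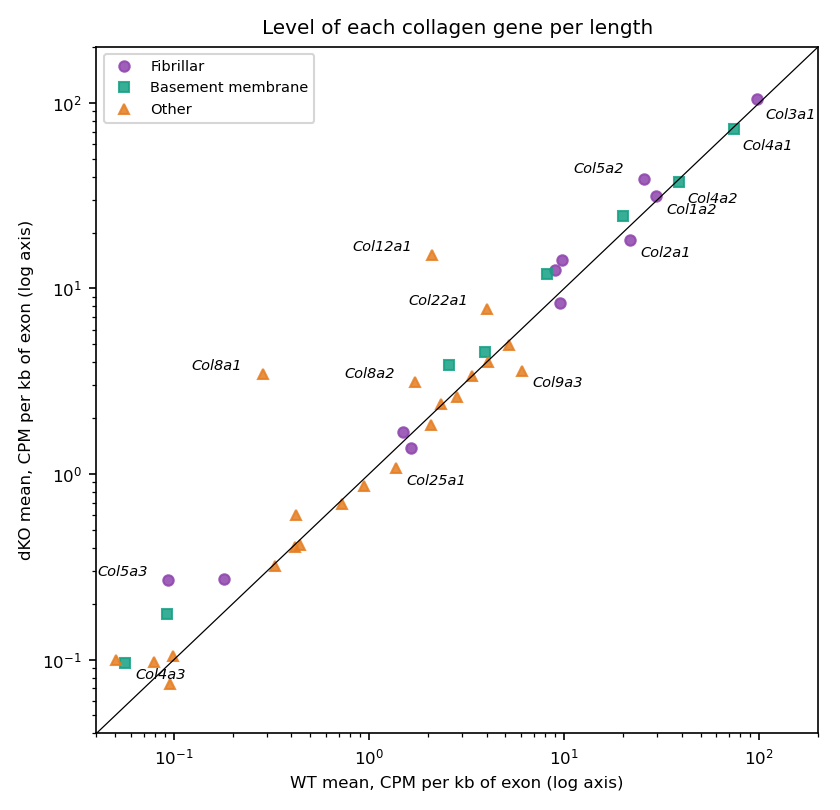
Mean level of each collagen gene in WT (horizontal) and dKO (vertical), in CPM per kb of exon on log axes, with the line of equal levels. Col3a1 and Col4a1 lie at the upper end close to the line, while Col12a1 (2.09 and 15.1) and Col8a1 (0.284 and 3.44) lie above it.

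Among fibrillar collagens, 4 of 11 rose relative to the library (Col5a3, Col5a2, Col11a1 and Col5a1) and 0 fell by edgeR, with 0 lower at an unadjusted p under 0.05; DESeq2 and limma-voom also called 0 lower. Their median log2 change was 0.17. The 4 that rose are chains of types V and XI, minor fibrillar collagens that co-assemble with types I and II and are known to limit fibril diameter. The major fibril-forming genes Col1a1, Col1a2, Col2a1 and Col3a1 did not pass the test.

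Col5a3, which encodes a rarer chain of type V, was at 0.841, 0.625, 0.295, 0.352 and 0.742 CPM in WT 1 to 5. In dKO 1 to 4 it was at 2.19, 1.19, 1.65 and 1.53 CPM. Every dKO library lay above every WT library. The relative log2 change was 1.58 (SE 0.30, adjusted p = 0.00347, edgeR), and per cell it was 1.99 (SE 0.30). These levels rest on 9 to 99 reads per library. With WT 1 and WT 5 alone, the relative change was 1.09 and no longer passed the test (edgeR, adjusted p = 0.105).

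Col5a2 encodes the chain shared by most type V molecules. Its WT levels were 159.9, 176, 149.5, 170.1 and 193 CPM, and its dKO levels were 257, 284, 239 and 249 CPM. The groups did not overlap. It rose by 0.60 on the log2 scale relative to the library (SE 0.07, adjusted p = 0.000298, edgeR) and by 1.04 per cell. Col5a1, its partner chain, was at 72.9, 72.4, 69.8, 73.1 and 87.0 CPM in WT and at 90.4, 101, 108 and 124 CPM in dKO. WT 5 was the highest WT library for this gene and lay just below dKO 1. Its relative log2 change was 0.49 (SE 0.09, adjusted p = 0.00238, edgeR), and it lost the call with WT 1 and WT 5 alone, at 0.39.

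Col11a1, a chain of type XI collagen, the minor fibrillar type of cartilage and vitreous, ran from 68.7 to 80.8 CPM in WT and from 102 to 117 in dKO. Its log2 change was 0.55 (SE 0.05, adjusted p = 5.9e-05, edgeR), a smaller change than that of Col5a3 but with the smallest adjusted p of the family. Its partner Col11a2 went from 10.3 ± 1.43 CPM in WT to 8.76 ± 2.22 in dKO, with overlapping groups and a log2 change of -0.23 that did not pass.

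Col3a1, the homotrimeric collagen of distensible tissues and meninges, was at 540.0, 506, 499.8, 549 and 616 CPM in WT. In dKO it was at 466, 675, 607 and 599.7 CPM. The lowest and the highest library were both dKO, and the log2 change of 0.11 (SE 0.10) did not pass. Col1a2, a chain of type I collagen, was at 148, 139, 149.9, 168 and 186 CPM in WT and at 134, 193, 177 and 173 CPM in dKO, again with dKO at both ends. Its log2 change was 0.09 (SE 0.11). Col1a1, the other type I chain, was at 40.3, 50.2, 56.4, 65.7 and 70.9 CPM in WT and at 32.2, 59.1, 52.3 and 55.3 CPM in dKO, a log2 change of -0.20 (SE 0.19). Col2a1, the fibrillar collagen of cartilage and of early neuroepithelium, had a log2 change of -0.26 (SE 0.12). Without dKO 2, the dKO library highest for it, Col2a1 passed the test as lower.

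Col24a1 and Col27a1, the remaining fibrillar genes, had log2 changes of 0.59 and 0.17 and did not pass. Summed over the class, fibrillar collagens were at 1212 ± 96.1 CPM in WT and 1396 ± 157 in dKO. The sums overlapped, since dKO 1 had 1189 CPM and WT 5 had 1366. Markers of meningeal mesenchyme summed to 219 to 260.0 CPM in WT and 261 to 324 in dKO, with 2 of 10 tested markers higher (Cdh11 and Ogn) and 1 lower (Slc6a13). Cdh11, a cadherin, ran from 96.9 to 113 CPM in WT and from 141 to 157 in dKO, and without it the sums overlapped, at 122 to 147 in WT and 109.8 to 168 in dKO. Dpt, a fibroblast marker in that list, had 1 read over the 9 libraries and was not tested. The part of these cells in the fibrillar values was not tested.

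In the basement membrane class, 3 of 8 genes rose relative to the library (Col4a5, Col4a6 and Col18a1) and 0 fell by edgeR, with 0 lower at an unadjusted p under 0.05 and 0 by DESeq2 or limma-voom. The median log2 change was 0.43. Per cell all 8 rose, beside the 61.1% of all genes given above. None of the 3 relative calls was kept with WT 1 and WT 5 alone, where 4 of the 8 genes were higher at an unadjusted p under 0.05 by edgeR.

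Col4a1 and Col4a2 encode the chains of the type IV network found in almost all basement membranes. Col4a1 was at 445, 502, 483, 455 and 581 CPM in WT and at 421, 502, 539.7 and 447 CPM in dKO. Col4a2 was at 217, 254, 254, 226 and 297 CPM in WT and at 209, 241, 279.8 and 234 CPM in dKO. In both genes the lowest library was dKO 1, the highest was WT 5, and the groups overlapped. Their log2 changes were -0.05 (SE 0.09) and -0.05 (SE 0.10), and per cell they were 0.39 and 0.39. With WT 1 and WT 5 alone, the per-cell changes were 0.32 and 0.33 and did not pass.

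Col4a5 and Col4a6 encode chains of a second type IV network, which occurs in only some basement membranes. Col4a5 ran from 49.0 to 56.3 CPM in WT and from 68.1 to 97.5 in dKO. Col4a6 ran from 15.9 to 18 CPM in WT and from 20.7 to 34.3 in dKO. Neither gene's groups overlapped, and dKO 4 was the highest library for both. The relative log2 changes were 0.56 (SE 0.09, adjusted p = 0.00181) and 0.58 (SE 0.12, adjusted p = 0.00519), both by edgeR. The values were 0.57 and 0.64 with WT 1 and WT 5 alone.

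Col4a3 and Col4a4, chains of the type IV network best known from kidney glomeruli, were close to the limit of counting, at 0.479 and 0.926 CPM in WT and 0.824 and 1.79 in dKO. Their log2 changes of 0.76 and 0.92 did not pass relative to the library. Col4a4 passed as higher with DESeq2, and by edgeR without dKO 2.

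Col18a1, the precursor of endostatin, was at 138, 141, 124, 133 and 146 CPM in WT and at 139.8, 175, 185 and 169.5 CPM in dKO. The groups overlapped through dKO 1. The log2 change was 0.30 (SE 0.07, adjusted p = 0.0136, edgeR). Col15a1, its closest relative, had a log2 change of 0.23 (SE 0.11) and did not pass, but was called higher without dKO 4. Endothelial markers, from cells that make vessel basement membrane, summed to 267 to 348 CPM in WT and 263 to 346 in dKO, with 1 of 12 higher (Flt1) and 0 lower by edgeR, also 0 at an unadjusted p under 0.05. Pericyte markers summed to 264 to 296 CPM in WT and 238 to 290 in dKO, with 0 of 8 past the threshold in either direction by edgeR and 2 lower at an unadjusted p under 0.05. WT 5 had the highest endothelial and pericyte sums of all libraries and the highest Col4a1 and Col4a2. These marker sums did not separate the groups. The part of endothelial cells and pericytes in the basement membrane values was not tested.

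**Figure D3:**
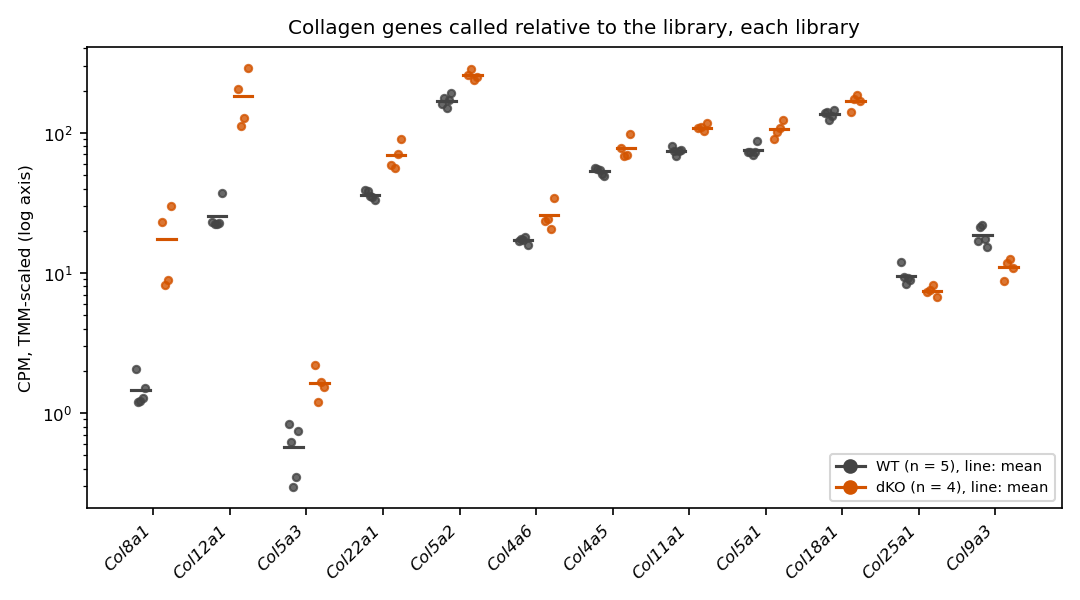
CPM (log axis) in each library for the 12 collagen genes past the relative threshold. Grey points are WT (n = 5), orange points dKO (n = 4), and bars the group means; Col18a1 overlaps between the groups, and the dKO points of Col8a1 run from 8.16 to 30.1, all above the WT points.

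Of the 22 other collagens, 3 rose (Col8a1, Col12a1 and Col22a1), 2 fell (Col9a3 and Col25a1) and 17 did not pass, with a median log2 change of -0.03. The summed level of this class was 239 ± 8.38 CPM in WT and 439 ± 96.6 in dKO. Without Col12a1 and Col8a1, the remaining 20 genes summed to 212 ± 3.23 CPM in WT and 238 ± 36.9 in dKO, with overlapping libraries.

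Col8a1 had the largest relative change of all 41 members. It encodes a chain of short-chain type VIII collagen, which forms hexagonal nets beneath the corneal endothelium and occurs in vessel walls. Its WT levels were 2.06, 1.19, 1.21, 1.28 and 1.51 CPM. Its dKO levels were 23.2, 8.16, 8.90 and 30.1 CPM. All dKO libraries lay above all WT libraries, with dKO 1 and 4 high and dKO 2 and 3 lower. The relative log2 change was 3.64 (SE 0.40, adjusted p = 0.000187, edgeR), 12.4-fold, and the per-cell change was 16.6-fold. Across the alternative settings the relative log2 change ran from 3.27 to 3.88, with an adjusted p of at most 0.0337 (edgeR, DESeq2 or limma-voom).

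Col8a2, the partner chain, was at 4.97, 7.05, 7.14, 7.04 and 11 CPM in WT and at 7.01, 29.9, 7.70 and 9.46 CPM in dKO. Only dKO 2 lay above the WT range. The relative log2 change of 0.83 (SE 0.40) did not pass, and without dKO 2 it was 0.08. Col9a1, a chain of FACIT type IX, showed the same library at 4.80 CPM against 1.40 to 1.85 in the other dKO libraries, and its log2 change went from 0.51 to -0.04 without it. In dKO 2 the markers of meningeal mesenchyme and of cartilage also had their highest sums of all libraries, 324 and 11.6 CPM. Hapln1 alone was at 10.2 CPM of that cartilage sum. A list of eye and periocular genes, chosen after values were seen, summed to 4.62 CPM in dKO 2 and at most 2.45 in the others. Whether these cells had a part in Col8a2 and Col9a1 was not tested.

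Upstream sequence was taken for members of the RefSeq table (build GRCm38.p6), which gave 36 windows of 250 bases before the annotated start for 33 of the 41 members. The motifs were searched on both strands: GGAATG, the core of the site bound by TEAD factors, the DNA-binding partners of YAP and TAZ, and TGANTCA, the AP-1 site. GGAATG or its reverse complement was in 4 member windows (Col3a1, Col6a2, Col18a1 and Col20a1) and in 12.6% of all 32851 windows. TGANTCA was in 1 member window (Col6a1) and in 6.75% of all windows. The windows of Col8a1 and Col5a3, the genes with the largest rises that the table holds, are shown with that of Col3a1, the most abundant member, where the match is in capitals. They lie at chr16:57754738-57754987 (minus strand), chr9:20815068-20815317 (minus strand) and chr1:45311288-45311537 (plus strand), hold no annotated exon, and read 5′ to 3′ on the gene's strand.
Col8a1: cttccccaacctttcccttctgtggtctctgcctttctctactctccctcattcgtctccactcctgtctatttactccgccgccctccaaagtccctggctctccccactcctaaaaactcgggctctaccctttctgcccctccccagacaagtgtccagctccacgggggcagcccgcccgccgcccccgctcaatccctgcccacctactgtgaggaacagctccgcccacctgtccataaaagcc
Col5a3: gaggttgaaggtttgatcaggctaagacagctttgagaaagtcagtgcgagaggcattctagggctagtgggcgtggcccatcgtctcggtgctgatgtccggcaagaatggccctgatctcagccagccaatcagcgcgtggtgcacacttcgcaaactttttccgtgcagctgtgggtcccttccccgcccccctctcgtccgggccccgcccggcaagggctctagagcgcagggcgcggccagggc
Col3a1: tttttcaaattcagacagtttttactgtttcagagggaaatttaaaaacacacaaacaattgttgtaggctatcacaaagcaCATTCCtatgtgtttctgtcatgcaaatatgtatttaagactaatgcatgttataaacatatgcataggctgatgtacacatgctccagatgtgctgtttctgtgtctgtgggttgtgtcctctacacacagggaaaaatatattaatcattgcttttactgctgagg
The Col8a1 and Col5a3 windows hold neither motif, and the Col3a1 window holds GGAATG on the opposite strand, read above as its reverse complement. Col18a1, called higher relative to the library, had 2 GGAATG matches in its window at chr10:77113706-77113955 and 0 in that at chr10:77166531-77166780. Col12a1, Col5a2 and Col22a1 are among the 8 members without a window. A match is a run of letters and not a measured binding site. A window without a match says nothing about sites further away.

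Col12a1, a FACIT collagen that decorates type I fibrils and links them to other matrix proteins, had the highest level per kb of the other class. Its WT levels were 23.1, 22.3, 22.2, 22.6 and 37.0 CPM. Its dKO levels were 205, 111, 128 and 290.2 CPM. WT 5 was high among WT, and the lowest dKO library was still well above it. The relative log2 change was 2.84 (SE 0.27, adjusted p = 7.36e-05, edgeR), 7.14-fold, and the per-cell change was 9.62-fold. The relative change was 2.56 with WT 1 and WT 5 alone.

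Col22a1, a FACIT collagen of tissue junctions such as the muscle-tendon border, was at 39.0, 38.4, 35.5, 34.5 and 33.2 CPM in WT and at 58.8, 55.8, 70.6 and 90.9 CPM in dKO. The groups were apart. The relative log2 change was 0.93 (SE 0.12, adjusted p = 0.000506, edgeR), and it was 0.94 with WT 1 and WT 5 alone. In Col8a1, Col12a1 and Col22a1 alike, dKO 4 was the highest of the 9 libraries. Markers of surface ectoderm, the outer epithelium of the embryo, summed to 10.1, 13.0, 10.9 and 28.6 CPM in dKO 1 to 4. In WT they summed to 9.42 to 22.3 CPM. The part of such cells in these 3 genes was not tested.

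The falls were smaller. Col9a3, a chain of FACIT type IX, which coats type II fibrils, was at 16.8, 21.2, 21.9, 17.4 and 15.3 CPM in WT and at 8.73, 11.7, 12.6 and 10.8 CPM in dKO, without overlap. The relative log2 change was -0.77 (SE 0.13, adjusted p = 0.00194, edgeR), and with WT 1 and WT 5 alone it was -0.55 and did not pass. Markers of the choroid plexus, the secretory epithelium at the dorsal midline, summed to 254, 475, 458, 273 and 130.1 CPM in WT and to 182, 209, 249.6 and 227 CPM in dKO, with 0 of 8 higher (0 also at an unadjusted p under 0.05) and 1 lower by edgeR (Aqp1). WT 2 and 3 and, within dKO, dKO 3 were highest in both that sum and Col9a3, and WT 5 and dKO 1 were lowest in both. The part of these cells in Col9a3 was not tested. Col25a1, a membrane-spanning collagen of neurons, ran from 8.28 to 11.9 CPM in WT and from 6.77 to 8.24 in dKO. Its relative log2 change was -0.34 (SE 0.11, adjusted p = 0.0437, edgeR). That call was lost in 10 of the alternative settings, among them leaving out any of WT 1, 2 and 4 and dKO 1, 2 and 4. Per cell neither gene was called, at 0.10 for Col25a1 and -0.32 for Col9a3 (edgeR, adjusted p = 0.067). Col9a3 was called lower per cell in 6 of the alternative settings: limma-voom, the replicate block, and leaving out WT 1, WT 5, dKO 2 or dKO 3.

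Type VI collagen, the beaded filament type around most connective tissue cells, did not pass in any of its 6 genes relative to the library. Col6a1 was at 20.2, 21.2, 23.3, 22.4 and 20.0 CPM in WT and at 16.4, 21.6, 20.0 and 23.2 CPM in dKO. Col6a2 was at 14.2, 16.6, 18.8, 16.4 and 19.1 CPM in WT and at 12.3, 17.5, 16.7 and 16.3 CPM in dKO. Col6a3 was at 40.3, 46.6, 44.7, 48.7 and 40.5 CPM in WT and at 33.0, 52.4, 41.1 and 48.1 CPM in dKO. In all of them dKO 1 was the lowest library and the groups overlapped, with log2 changes of -0.09, -0.13 and -0.02 (SE 0.09, 0.11 and 0.12). Col6a4, Col6a5 and Col6a6, the relatives of Col6a3, were each under 1 CPM on average.

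The remaining FACIT genes Col9a2, Col14a1, Col16a1, Col19a1 and Col20a1 had log2 changes between -0.17 and 0.02. The transmembrane genes Col13a1 and Col23a1 had changes of -0.12 and 0.02, and Col17a1, the hemidesmosome collagen of epithelia, 0.94 on 3 to 29 reads per library. Col7a1, the anchoring fibril collagen of skin, had a change of -0.09. None of these passed relative to the library with all libraries. Col17a1 passed as higher without WT 4 and without dKO 2. Among dKO libraries, dKO 1 was the lowest for 21 of the 41 members, and among WT libraries WT 5 was the highest for 18.

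Because chains of a type assemble together, the ratio of partner chains was compared for 13 pairs, as levels per kb, by exact permutation of the libraries (two-sided, 126 assignments, smallest possible p = 0.00794). After adjustment over the 13 pairs, 0 passed, with a smallest adjusted p of 0.0516; 5 had an unadjusted exact p under 0.05. Members were known to differ before these pairs were formed, so the ratios describe how unequal the changes within a type were. For chains of the same type IV network the ratio differed by less than its spread between libraries. Col4a1 to Col4a2 was 1.93 ± 0.0537 in WT (SD, n = 5) and 1.93 ± 0.0770 in dKO (n = 4, exact p = 0.937), and Col4a5 to Col4a6 was 3.16 ± 0.198 and 3.13 ± 0.300 (exact p = 0.81). Each of these pairs lies head to head in GRCm38.p6. The starts of Col4a1 and Col4a2 are 21 bases from each other on chromosome 8, with overlapping first bases on opposite strands. Those of Col4a6 and Col4a5 are 1343 bases apart on chromosome X. Type VI ratios also differed by less than their spread. Col6a1 to Col6a2 was 1.86 ± 0.206 in WT and 1.90 ± 0.142 in dKO (exact p = 0.778). Col6a3 to Col6a1 was 0.779 ± 0.0450 and 0.809 ± 0.0721 (exact p = 0.516). Col4a3 to Col4a4, close to the limit of counting, was 0.643 ± 0.373 in WT and 0.591 ± 0.155 in dKO. Whether position in the genome bears on these ratios was not tested.

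Ratios without overlap between the groups were found in types XI, IX and II. Col11a1 to Col11a2 was 5.76, 6.51, 6.02, 6.66 and 5.10 in WT and 14.2, 8.77, 7.68 and 12.6 in dKO (exact p = 0.00794). Col2a1 to Col11a1, whose products meet in type XI molecules, was 2.24 ± 0.112 in WT and 1.29 ± 0.311 in dKO (exact p = 0.00794). Col9a3 to Col9a2 was 2.98 ± 0.693 in WT and 1.97 ± 0.228 in dKO (exact p = 0.0159). These ratios were also apart with WT 1 and WT 5 alone, where 15 assignments allow no p below 0.0667. Cartilage markers summed to 4.16 to 7.78 CPM in WT and 7.63 to 11.6 in dKO. Hapln1 made up most of these sums, at 4.75 CPM in WT and 7.66 in dKO, with overlapping groups. Acan was at 0.224 and 0.602 CPM, on 4 to 31 reads per library, and Matn3 at 0.594 and 0.92 CPM. All 3 tested markers rose (Acan, Matn3 and Hapln1), on log2 changes of 1.47, 0.64 and 0.67. None of these passed with WT 1 and WT 5 alone, at 1.24, 0.48 and 0.37, and Matn1, Comp and Chad averaged under 0.2 CPM in both groups. Their part in these ratios was not tested.

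The ratio Col8a1 to Col8a2 was 0.352, 0.144, 0.144, 0.154 and 0.117 in WT and 2.81, 0.232, 0.98 and 2.70 in dKO. Only dKO 2 overlapped with WT, through its high Col8a2 (exact p = 0.0159, two-sided, adjusted 0.0516). Col5a3 to Col5a2 was 0.00361 ± 0.00148 in WT and 0.00698 ± 0.00196 in dKO, with overlap (exact p = 0.0397, adjusted 0.103).

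**Figure D4:**
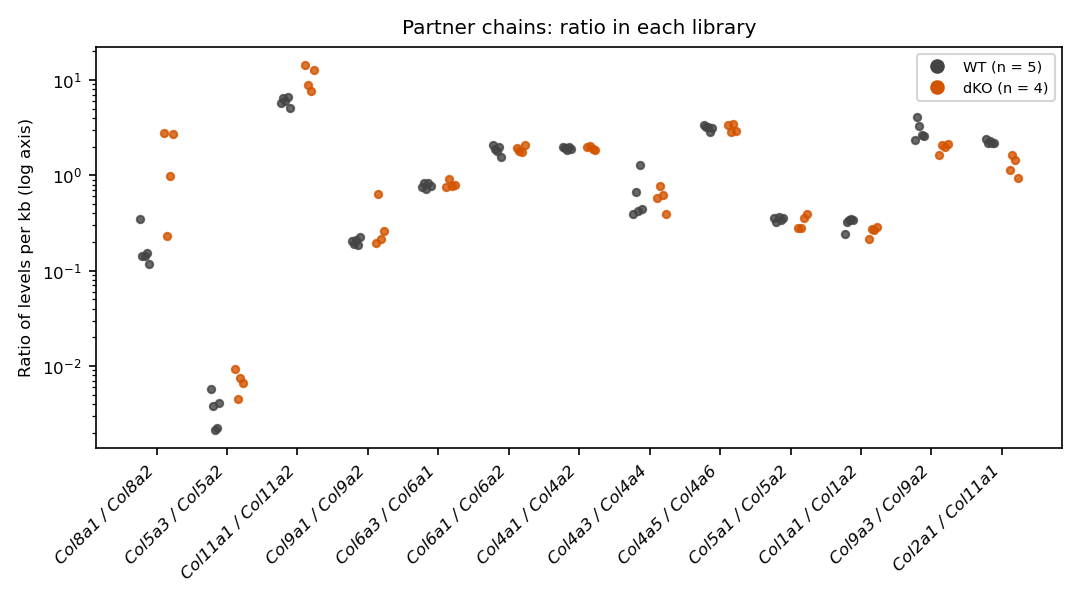
Ratio of levels per kb (log axis) for 13 pairs of partner chains in each library, grey for WT (n = 5) and orange for dKO (n = 4). Col4a1/Col4a2 stays near 1.93 in both groups, while Col11a1/Col11a2 runs from 5.10 to 6.66 in WT and from 7.68 to 14.2 in dKO.

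Genes that act on collagens were described from 4 lists, of which 58 of 63 genes were tested. Relative to the library 21 rose and 3 fell, beside 13.7% and 12% of all genes. Per cell 41 rose and 0 fell by edgeR, beside 61.1% and 0.698% of all genes, with 0 lower at an unadjusted p under 0.05 and 0 by DESeq2 or limma-voom. With WT 1 and WT 5 alone, 10 rose and 0 fell by edgeR, with 2 lower at an unadjusted p under 0.05.

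Of the genes for folding and secretion, 10 of 21 rose and 0 fell by edgeR (1 lower at an unadjusted p under 0.05, 0 lower by DESeq2 and limma-voom), with a median log2 change of 0.27. Serpinh1, the collagen-specific chaperone HSP47, went from 272 ± 25.2 CPM in WT to 432 ± 9.50 in dKO, a log2 change of 0.67 (SE 0.06, adjusted p = 5.34e-05, edgeR). P4ha3, a catalytic subunit of the prolyl 4-hydroxylase that stabilises the triple helix, rose from 2.00 to 5.44 CPM, by 1.42. P4hb, the other subunit of that enzyme, rose by 0.27, and Lepre1, a prolyl 3-hydroxylase, by 0.51. The lysyl hydroxylase Plod2, which prepares collagen for cross-linking, rose by 0.82, whereas its relatives Plod1 and Plod3 had changes of -0.02 and 0.05 that did not pass; these 3 are named outside the rule for the lists. Of the 10 rises, 4 were called with WT 1 and WT 5 alone. Those of P4hb and Plod2 were not, at 0.22 and 0.75. Ppib, the cyclophilin of the same folding complex, had a change of 0.09.

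Of the genes for processing and cross-linking outside the cell, 7 of 18 rose and 0 fell by edgeR (0 lower at an unadjusted p under 0.05, 0 by DESeq2 or limma-voom), with a median log2 change of 0.20. Sparc, a secreted collagen-binding glycoprotein, went from 152 ± 15.5 to 411 ± 51.1 CPM, a log2 change of 1.44 (SE 0.09, adjusted p = 7.46e-06, edgeR). Tll1, a tolloid-like protease that removes the C-propeptide of procollagens, and its relative Tll2 had changes of 1.46 and 2.80. Bmp1, the founding member of that protease family, was at 59.8 and 56.1 CPM and did not pass. Loxl2, a lysyl oxidase that cross-links type IV and fibrillar collagens, rose from 22.9 to 56.0 CPM, by 1.3, and Lox itself, at 19 and 21.5 CPM, did not pass.

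Of the receptors, 3 of 10 tested rose and 1 fell. Itgb1, the common subunit of the collagen-binding integrins, rose by 0.33 (245 to 308 CPM), its partner Itga1 by 0.69 and Ddr2, a receptor kinase for fibrillar collagens, by 1.31. Gpr56, the receptor for type III collagen on radial glia, fell by 0.29 (211 to 173 CPM). Gpr56, Itga1 and Ddr2 lost their calls with WT 1 and WT 5 alone, at log2 changes of -0.26, 0.71 and 1.13 against -0.29, 0.69 and 1.31 with all libraries.

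Among degrading enzymes and their inhibitors, 1 of 9 tested rose (Timp3, by 0.44) and 2 fell (Mmp14, a membrane-bound collagenase, by 0.25, and Mmp16, its relative, by 0.21). Mmp9, a gelatinase, had a log2 change of -0.67 that did not pass by edgeR or limma-voom but was called lower by DESeq2. In this list DESeq2 called 2 higher and 3 lower, and limma-voom 1 higher and 2 lower. With WT 1 and WT 5 alone, 0 of the 9 rose or fell by edgeR, with 2 higher and 1 lower at an unadjusted p under 0.05.

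Summed over all 41 members, collagen transcripts were at 2425 ± 175 CPM in WT and 2855 ± 237 in dKO, and the libraries overlapped (WT 5 at 2735, dKO 1 at 2504). Per 1000 spike-in reads the sum was 141 ± 20.5 in WT and 226 ± 35.4 in dKO, without overlap. All gene reads per spike-in read were also without overlap, at 49.9 to 63.5 in WT and 71.1 to 83.7 in dKO. By that scaling 48.4% of all genes lay wholly above WT. WT 5 was the highest WT library and dKO 1 the lowest dKO library in the sum of all members and in the fibrillar and the basement membrane sums.

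**Figure D5:**
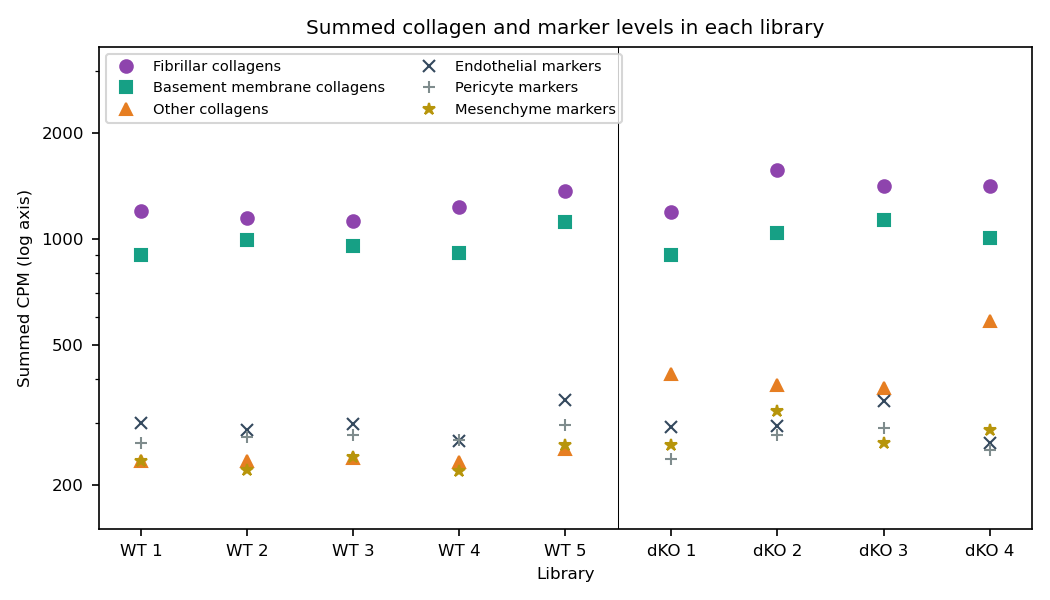
Summed CPM (log axis) of fibrillar, basement membrane and other collagens and of endothelial, pericyte and mesenchyme markers in each library, WT on the left and dKO on the right. The other class runs from 233 to 253 CPM in WT and from 377 to 582 in dKO, while the endothelial sum runs from 267 to 348 in WT and from 263 to 346 in dKO.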

How the data were processed

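Total RNA of 9 E12.5 mouse telencephalon libraries (5 WT, 4 dKO, each from 1 embryo per the labels) had been made into stranded libraries from 350 ng and sequenced as paired reads of 100 bases, per the labels' protocols. The authors deposited raw read counts per gene symbol, made with STAR and HTSeq on mm9 per the submitters' processing notes. Neither tool versions nor the annotation nor the strand setting is stated in these notes, so reads of overlapping or antisense genes cannot be told apart and such values are uncertain. Reads in no gene (32.0% to 41.3%), spike-ins and the counter's other rows entered neither library sizes nor gene tests.

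In R 4.3.3, genes were filtered with filterByExpr (17182 kept) and tested with edgeR 4.0.16 (quasi-likelihood, Benjamini-Hochberg over all genes tested, threshold 0.05) under TMM scaling (relative) and with library size set to the total of the 92 spike-ins (per cell). All per-cell p-values rest on the same 9 spike-in totals. SE is the log2 change divided by the root of F. CPM are TMM-scaled. Levels per kb used exon lengths of GENCODE vM21 (GRCm38), matched for 41 members, and promoter windows came from RefSeq. Chain ratios were tested by exact permutation. The edgeR fits, but not the chain ratios, were tested on simulated counts. These had the same spread set for all genes and no subgroup of WT libraries, so they do not cover such differences. Depth was 12906561 to 45803152 gene reads, so a member with 112 reads in all is known only coarsely.

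The members, classes and gene lists were chosen with earlier results of these data known. Named with values in every library were members that passed and changed at least 2-fold, the 3 highest per kb of each class and their partner chains, and in the pathway lists the 4 smallest adjusted p. Col9a3, given in every library, lies outside that rule, as do Plod1, Plod2, Plod3, Ppib, Bmp1, Lox and single markers. These names, the eye gene list and the mesenchyme sum without Cdh11 were chosen after values were seen. Replicate numbers are not said to mark litters, and deviations of same-numbered samples correlated at -0.16, -0.13, -0.29 and 0.16, so libraries were not paired. No pair of replicates matched within sampling noise. Alternatives were DESeq2 1.42.0, limma-voom (limma 3.58.1), other filters and scalings, a tested change of at least 1.5-fold, a replicate block, WT 1 and WT 5 alone, and leaving out each library.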

Additional observations from a re-analysis of the deposited data

Results flagged for a closer look

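A library far from the others of its group was looked for in every member, which gave 5 cases in 82 groups of libraries; chance alone flags about 1 in 20 groups. WT 5 was far above the other WT libraries for Col12a1 (37.0 CPM, others 22.2 to 23.1) and for Col5a1 (87.0 CPM, others 69.8 to 73.1). It was also the WT library with the highest sums of endothelial, pericyte and mesenchyme markers. WT 1 was high for Col2a1 (130.4 CPM, others 104 to 110.3). In dKO 2, Col8a2 was at 29.9 CPM (others 7.01 to 9.46) and Col9a1 at 4.80 CPM (others 1.40 to 1.85).

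Without WT 5 the relative log2 change of Col12a1 was 3.02, against 2.84 with it. Without dKO 2 that of Col8a2 was 0.08, against 0.83.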

How the results depend on the processing

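No member reversed a call under any setting run. Col8a1 and Col12a1 kept their relative calls in all of them, and both remained with a tested change of at least 1.5-fold, where 2 members were higher relative to the library, 0 lower, 10 higher per cell, and 6 pathway genes higher and 0 lower. With WT 1 and WT 5 alone, 5 members were higher and 0 lower relative to the library, and 10 pathway genes were higher and 0 lower. Without a filter, 1 member (Col9a3) was lower. Per cell, limma-voom called 1 member lower (Col9a3). Leaving out each library gave 10 to 12 members higher and 1 to 2 lower relative to the library, 21 to 32 higher and 0 to 1 lower per cell, and 19 to 23 pathway genes higher and 2 to 3 lower. Without dKO 1, the lowest dKO library for 21 members, 32 rose per cell, and without dKO 2, 21 did. Within dKO, gene reads per spike-in read were lowest in dKO 1, at 71.1, and highest in dKO 2, at 83.7. The causes of these shifts were not tested. Shares of all genes are given above for the main fits and for WT 1 and WT 5 alone. They are not given for the other settings, whose counts cannot be told from a shift over all genes. With the replicate number as a block, over WT 1 to 4 and dKO 1 to 4, 10 members were higher and 1 lower relative to the library, 28 higher and 1 lower per cell, and 21 pathway genes higher and 2 lower; the numbers do not pair the samples. Depth limits the 8 members that a mean count of at least 50 leaves out, Col5a3 and Col17a1 among them.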

Other observations

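Col26a1 appears in the files under its older symbol Emid2 and so lies outside the family as defined by symbol. It was at 35.0 ± 4.08 CPM in WT (SD, n = 5) and 39.6 ± 8.70 in dKO (SD, n = 4), with a relative log2 change of 0.18 that did not pass. Col28a1, a member-like gene under the minimum and not tested, was at 0.256 to 0.483 CPM in WT and 0.143 to 0.244 in dKO, on 4 to 17 reads per library. Col10a1, the collagen of hypertrophic cartilage, had 0 to 4 reads per library in both groups.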
